A study of Mus musculus with 18 samples.

Results

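Kidney cortex of lupus-prone mice given a multi-target treatment was compared with kidney cortex of the same strain given vehicle alone, across all 15035 measured genes. The comparison used 6 of the 18 libraries of the series: the 3 labelled Multi-target (mice 6, 18 and 39) and the 3 Mrl/lpr libraries labelled Vehicle (mice 7, 17 and 36). All 6 mice had the genotype Mrl/lpr, and the other groups were 3 healthy Mrl/Mpj wild type mice on vehicle and Mrl/lpr mice given MMF, FK506 or prednisone alone, 3 each. The labels give no dose, age, sex or duration of treatment, and do not name the drugs in the multi-target treatment. In clinical use that name stands for mycophenolate mofetil, tacrolimus and a glucocorticoid given together. The series' title places the study in combination therapy for lupus nephritis.

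Mrl/lpr mice carry an insertion in the death receptor gene Fas. Lymphocytes that should die then accumulate, autoantibodies form, and immune complexes lodge in the glomeruli. T cells and macrophages enter the kidney, interferon-gamma from lymphocytes switches on antigen presentation in tubules and myeloid cells, and matrix builds up while tubules lose transport and energy metabolism. Mycophenolate blocks guanine nucleotide synthesis, which dividing lymphocytes need. Tacrolimus blocks calcineurin, the phosphatase that lets NFAT factors start cytokine transcription, and glucocorticoids act through a nuclear receptor that represses many inflammatory genes. In bulk tissue, fewer cells of a type and less RNA per cell cannot be told apart.

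Depth was similar across the 6 libraries, and vehicle mice 17 and 36 stood apart in tissue content or extent of change. Reads recovered from the deposited values summed to between 32476100 and 38961322 per library, and the median gene stood at 740 to 957 reads. Markers of proximal tubule, loop of Henle, collecting duct, podocyte and endothelium were present in all 6 libraries, with Slc34a1, a phosphate transporter of the proximal tubule, at log2 levels of 15.88 to 17.63. Vehicle mouse 17 also held transcripts of fat and urothelium. The adipocyte hormone Adipoq stood at 11.30 there, 3.89 and 4.07 in the other vehicle mice and 3.51 to 3.95 in the multi-target mice. The summed log2 level of the 8 urothelial markers ran from 8.61 to 11.33 in vehicle mice and from 8.35 to 9.02 in multi-target mice. The summed level of the 9 adipocyte markers ran from 14.99 to 16.79 and from 16.28 to 17.14, a sum that includes Pck1, which the kidney also makes. Vehicle mouse 36 lay farthest along the first principal component, at 79.3, against 17.2 and 34.7 for vehicle mice 7 and 17, -10.0 to 6.33 for the multi-target mice and -53.4 to -43.9 for the healthy mice. List medians against vehicle in this section are also given without a mouse, or as a range. This was done where leaving a mouse out moved them by over 1.5 times or changed their sign.

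No gene passed the limma test between multi-target and vehicle, with Benjamini-Hochberg adjustment over 15035 genes at 0.05 (0% called). The smallest adjusted p was 0.161, which 42 genes shared, and no other tool was run. At an unadjusted p under 0.05 there were 2341 genes (15.6% of those tested), of which 894 (5.95%) were higher and 1447 (9.62%) lower in multi-target mice. Under quantile normalization the split was 1319 higher and 1202 lower. In 1434 genes (9.54%) all 3 multi-target mice lay below all 3 vehicle mice, and in 1135 genes (7.55%) all lay above. By the sign of the difference alone, 46.5% of all genes stood above vehicle. The unadjusted count was 858 without vehicle mouse 36, 1176 without multi-target mouse 18, 1549 without multi-target mouse 6 and 3585 without vehicle mouse 7. Without vehicle mouse 7, 38 genes passed the adjusted test, 36 of them lower. That fit leaves vehicle mouse 17, which held fat and urothelial transcripts, and vehicle mouse 36. The 38 were not leukocyte genes alone, and included the keratin Krt19 at -3.47. The part of tissue content in this count was not tested. Counts of genes without overlap depended most on vehicle mouse 7 and multi-target mouse 39, and separation is easier by construction with 1 mouse fewer. Over all genes the share lower without overlap was 21.3% without multi-target mouse 39 and 22.1% without vehicle mouse 7. The share higher without overlap was 13.8% without vehicle mouse 17, 10.4% without multi-target mouse 18, 10.2% without multi-target mouse 6 and 18.6% without multi-target mouse 39. These recounts were chosen after seeing the data. All differences below are therefore descriptions of levels with their standard errors and adjusted p, and the percentages above are the background against which each count is set.

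**Figure D1:**
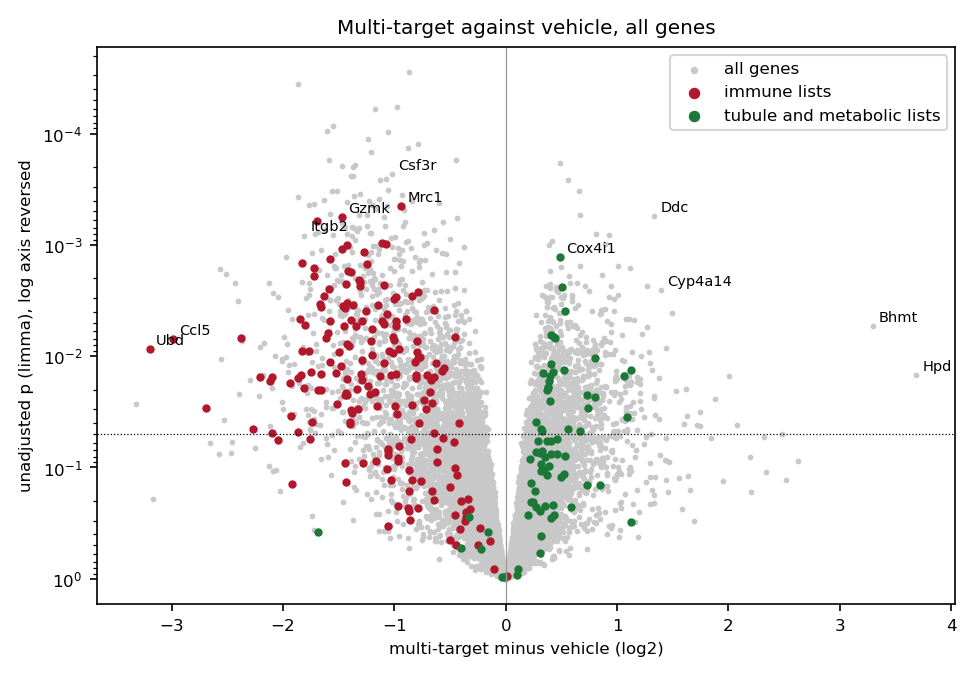
Difference in log2 level between multi-target and vehicle mice on the x axis against the unadjusted limma p on a reversed log axis, 1 point a gene, with immune lists in red and tubule and metabolic lists in green. The dotted line marks the unadjusted threshold of 0.05, and no gene passed the limma test after adjustment.

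The 10 genes with the smallest p, picked here after their values were seen, all lay lower in multi-target mice with no overlap between groups. Several are leukocyte genes. Itga4, the integrin chain that lymphocytes and monocytes use to leave blood vessels, stood at 10.38, 10.92 and 10.91 in vehicle mice 7, 17 and 36 and at 9.92, 9.74 and 9.96 in multi-target mice 6, 18 and 39. The difference was -0.86 ± 0.15 (SE; limma adjusted p = 0.161), and healthy mice stood at 9.21 to 9.34. Itgal, the leukocyte integrin LFA-1 alpha chain, differed by -1.17 ± 0.21 and Clec4e, a myeloid receptor for mycobacterial glycolipids and damaged cells, by -1.86 ± 0.32. Pik3cd, the leukocyte form of the PI3-kinase catalytic subunit, differed by -1.24 ± 0.24, with the same adjusted p. Leaving out vehicle mouse 7, which leaves vehicle mice 17 and 36, brought Itga4 to -1.04 (limma adjusted p = 0.0240) and Itgal to -1.40 (0.0400).

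Antigen presentation through MHC class II was lower in every measured member. All 12 genes of the list stood below vehicle, 11 of 12 at an unadjusted p under 0.05, and 9 of 12 had no overlap between groups (background 9.54%). The list's median difference was -1.36, against -0.02 for all genes, and it ranged from -1.10 to -1.62 when any 1 of the 6 mice was left out. Ciita, the master coactivator of class II transcription, stood at 11.37, 11.76 and 11.94 in vehicle mice 7, 17 and 36 and at 10.31, 9.17 and 10.43 in multi-target mice 6, 18 and 39. Its difference was -1.72 ± 0.45 (SE; limma adjusted p = 0.166), and mouse 18 was the lowest of the treated mice. H2-Aa, a chain of the peptide-presenting molecule, stood at 14.94, 15.78 and 15.57 in vehicle mice and at 14.27, 13.52 and 14.21 in multi-target mice. The groups did not overlap, with a difference of -1.43 ± 0.41 (adjusted p = 0.176). H2-DMb1, a chain of the chaperone that loads peptides, stood at 12.21, 12.72 and 12.48 against 11.75, 11.05 and 11.59, also without overlap. H2-Aa stood at 10.36 to 10.96 in healthy mice and was higher in the multi-target group by 3.32 (limma adjusted p = 0.000479).

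MHC class I genes had the same direction. All 20 measured members stood below vehicle at an unadjusted p under 0.05, and 17 of 20 did not overlap. The median difference was -1.10. Nlrc5, the class I counterpart of Ciita, stood at 11.02, 11.93 and 11.91 in vehicle mice and at 10.29, 9.92 and 10.90 in multi-target mice, a difference of -1.25 ± 0.32 (limma adjusted p = 0.166). Tap1, a subunit of the pump that carries peptides into the endoplasmic reticulum, differed by -1.31 ± 0.36. H2-Q4, a non-classical class I gene, differed by -1.39 ± 0.37. Erap1, which trims peptides to fit class I, differed by -0.79 ± 0.22, and its groups overlapped. H2 genes are polymorphic and have close copies, as do the Gbp, Tgtp, Cyp4a and Ces1 genes named below, so the authors' counting could split reads between copies of these families.

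The interferon-gamma list holds GTPases and effectors that this cytokine induces. All 21 members stood below vehicle and 20 of 21 had an unadjusted p under 0.05, with a median difference of -1.75, and -1.16 without multi-target mouse 18. In 4 of 21 the groups did not overlap (background 9.54%). That count was 21 of 21 without multi-target mouse 39 and 20 of 21 without vehicle mouse 7, and it stayed at 4 without any 1 of the other 4 mice. Multi-target mouse 39 lay within the range of the vehicle mice on this list. The list's mean above healthy was 1.48 in mouse 18, 2.37 in mouse 6 and 3.50 in mouse 39, against 3.17, 4.41 and 4.85 in vehicle mice 7, 36 and 17. Irf1, the transcription factor that relays the interferon-gamma signal, stood at 11.80, 12.96 and 12.66 in vehicle mice and at 10.96, 10.50 and 11.66 in multi-target mice. The groups did not overlap (difference -1.43 ± 0.39, limma adjusted p = 0.169). Ubd, a ubiquitin-like modifier (chromosome 17, 37193892 to 37196095, mm10), had the largest negative difference among genes that did not overlap and had an unadjusted p under 0.05. It stood at 10.22, 12.36 and 13.62 in vehicle mice, 8.98, 7.83 and 9.80 in multi-target mice and 3.96 to 5.48 in healthy mice. That difference was -3.20 ± 1.06 (limma adjusted p = 0.209). Gbp7 and Gbp5, guanylate-binding proteins of cell-autonomous defence, differed by -1.44 ± 0.42 and -1.77 ± 0.59 with overlapping groups.

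Promoters of 4 of these genes are shown because the class II and interferon-gamma lists lay together below vehicle, and known elements could be searched for in them. The windows run from 250 bases before to 50 after the annotated start, from RefSeq on GRCm38.p6, the C57BL/6J reference, which can differ from the Mrl strains. Capitals in the first pair mark matches on either strand to AGNAAC followed at once by NGATG, letters of the X box, and GATTGG, letters of the Y box, the elements through which class II promoters recruit Ciita. Among all 32851 windows, 0.298% hold the first motif and 16.1% the second. Of the 12 measured class II genes, 9 had a window, and 2 of those held the X letters and 7 the Y letters. H2-DMb1 is 1 of the 2 with the X letters, so the pair shown for it is not typical of the list. H2-DMb1 (chr17:34152941-34153240, plus strand) has the X letters from -95 to -85 and the Y letters from -62 to -57. H2-Aa (chr17:34287774-34288073, minus strand) has the Y letters from -49 to -44, and the X letters as spelled here are not in its window.
H2-DMb1: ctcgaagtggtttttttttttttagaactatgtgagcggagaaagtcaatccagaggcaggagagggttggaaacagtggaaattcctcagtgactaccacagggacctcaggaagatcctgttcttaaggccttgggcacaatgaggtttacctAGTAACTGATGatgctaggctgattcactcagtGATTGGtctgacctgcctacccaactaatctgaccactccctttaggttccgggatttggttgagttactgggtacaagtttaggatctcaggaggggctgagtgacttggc
H2-Aa: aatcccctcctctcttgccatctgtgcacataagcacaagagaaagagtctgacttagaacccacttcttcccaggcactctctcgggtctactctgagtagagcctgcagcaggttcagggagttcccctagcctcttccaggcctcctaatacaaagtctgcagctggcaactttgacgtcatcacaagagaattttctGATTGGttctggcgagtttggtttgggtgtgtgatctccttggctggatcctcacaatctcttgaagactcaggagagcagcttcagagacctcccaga

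Capitals in the second pair mark GAAA, any 2 bases and GAAA again, the core of the interferon-stimulated response element that IRF factors bind, and TTCNNNGAA, the gamma-activated site, on either strand. These are found in 3.44% and 8.30% of the same windows. Gbp7 (chr3:142530086-142530385, plus strand) has the first from -53 to -44 and the second from -106 to -98 and from -87 to -79. Tgtp1 (chr11:48992197-48992496, minus strand), a T-cell-specific GTPase, has the second from -88 to -80 and the first from -77 to -68. None of these matches overlap each other. Of the 21 measured genes of the list, 14 had a window, and 10 of those held the response element. A match describes letters and not binding.
Gbp7: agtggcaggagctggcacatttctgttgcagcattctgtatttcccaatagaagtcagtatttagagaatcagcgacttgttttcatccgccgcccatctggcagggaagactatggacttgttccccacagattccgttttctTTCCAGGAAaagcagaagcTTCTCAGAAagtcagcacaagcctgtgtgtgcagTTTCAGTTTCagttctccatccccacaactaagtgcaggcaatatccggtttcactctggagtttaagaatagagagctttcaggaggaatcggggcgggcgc
Tgtp1: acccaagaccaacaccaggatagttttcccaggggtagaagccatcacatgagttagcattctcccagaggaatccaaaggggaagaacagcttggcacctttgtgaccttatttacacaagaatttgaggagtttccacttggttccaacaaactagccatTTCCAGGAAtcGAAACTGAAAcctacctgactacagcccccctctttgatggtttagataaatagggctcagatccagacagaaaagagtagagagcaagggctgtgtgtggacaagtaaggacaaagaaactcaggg

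Genes induced by type I interferon were also low in every member, but with less separation. All 29 stood below vehicle (median -0.79), 5 of 29 had an unadjusted p under 0.05 and 1 of 29 did not overlap, a share below the background of 9.54%. Without vehicle mouse 7 the count was 15 of 29, and without multi-target mouse 39 it was 21 of 29. The median was -1.21 without either of those mice and -0.34 without vehicle mouse 36. The gene that did not overlap over all 6 mice was Ddx58, the cytosolic RNA sensor RIG-I, at 11.48, 11.76 and 12.51 in vehicle mice and 11.07, 10.89 and 11.40 in multi-target mice (difference -0.79 ± 0.27, limma adjusted p = 0.210). Zbp1, a sensor of left-handed nucleic acids, differed by -1.86 ± 0.68, with multi-target mouse 39 at 8.10 above vehicle mouse 7 at 7.83.

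**Figure D2:**
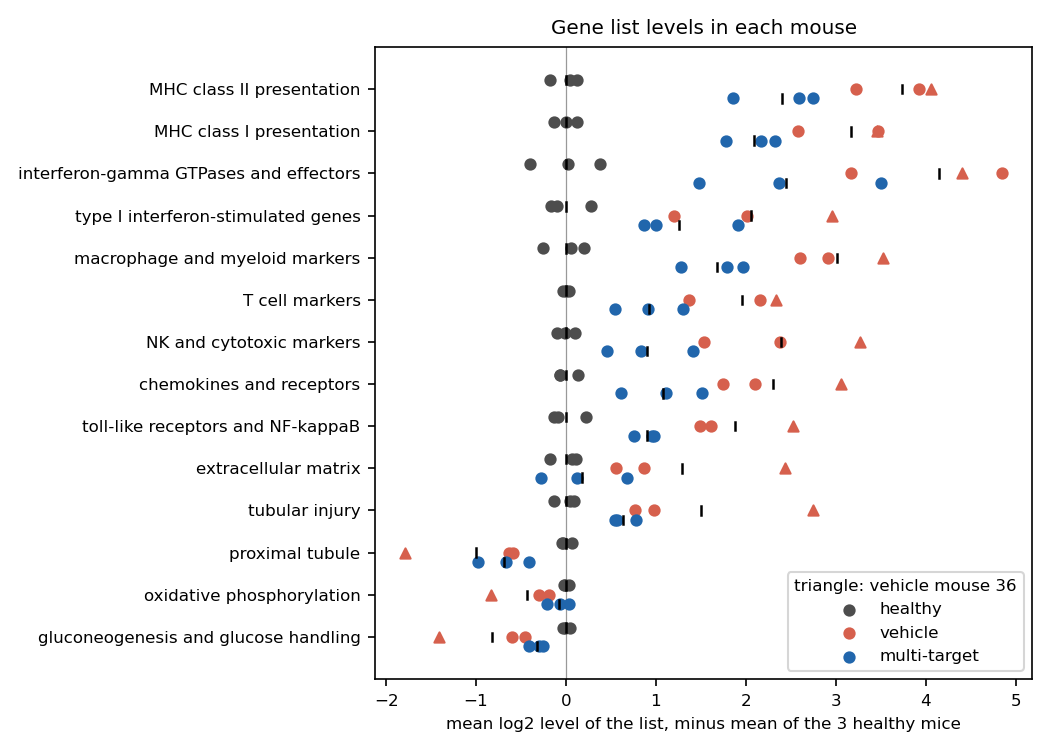
Mean log2 level of each gene list in each mouse, minus the mean of the 3 healthy mice, with healthy, vehicle and multi-target mice as points and group means as black ticks. The macrophage list shows 3 multi-target mice at 1.27 to 1.97 below 3 vehicle mice at 2.61 to 3.52, while vehicle mouse 36 (triangle) stands apart in the matrix, injury and tubule lists.

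Macrophage and myeloid markers separated the groups most often. All 25 measured markers stood below vehicle, 22 of 25 had an unadjusted p under 0.05 and 22 of 25 did not overlap. The median was -1.42, and -1.13 without vehicle mouse 36. Mrc1, the mannose receptor CD206, stood at 9.96, 10.28 and 10.52 in vehicle mice 7, 17 and 36, at 9.50, 9.09 and 9.36 in multi-target mice 6, 18 and 39 and at 8.74 to 8.99 in healthy mice. The difference was -0.94 ± 0.21 (limma adjusted p = 0.161), and the treated mice lay between both other groups. Itgam, the integrin CD11b, differed by -1.31 ± 0.35, the pore-forming protein Mpeg1 by -1.73 ± 0.46 and the lysosomal glycoprotein Cd68 by -1.64 ± 0.46. Treml4, a receptor of myeloid cells, differed by -2.56 ± 0.88 (adjusted p = 0.218), with multi-target mice at 3.77 to 5.43 and no overlap.

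T cell and cytotoxic markers followed. Of 19 T cell markers all stood below vehicle, 17 had an unadjusted p under 0.05 and 14 did not overlap, with a median of -1.07. Cd3g, a chain of the T cell receptor complex, stood at 7.85, 8.79 and 9.22 in vehicle mice and at 7.01, 6.54 and 7.58 in multi-target mice, where healthy mice stood at 6.52 to 6.81. That was a difference of -1.57 ± 0.40 (limma adjusted p = 0.166). The costimulatory receptor Cd28 differed by -1.27 ± 0.32 and the checkpoint receptor Lag3 by -1.42 ± 0.35. All 7 measured NK and cytotoxic markers stood below vehicle (6 at an unadjusted p under 0.05, 5 without overlap, median -1.42). The list held 13, and Gzma, Klrd1, Ncr1, Klrb1c, Eomes and Tbx21 were not measured. Gzmk, a granule protease of memory CD8 T cells, stood at 6.21, 6.63 and 7.03 against 4.95, 5.09 and 5.42, a difference of -1.47 ± 0.34 (adjusted p = 0.163).

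B cell and neutrophil markers were less uniform. Of 21 listed B cell and plasma cell markers 11 were measured, and Ms4a1, Pax5, Ighm, Igkc and Jchain were among those that were not. Of 11 B cell and plasma cell markers, 10 stood below vehicle, 5 at an unadjusted p under 0.05 and 5 without overlap, and the median of -0.38 was -0.17 without vehicle mouse 36, -0.70 without vehicle mouse 17 and -0.74 without vehicle mouse 7. Prdm1, which drives plasma cell differentiation, differed by -0.97 ± 0.24 and Cd22, an inhibitory receptor of B cells, by -0.69 ± 0.20 (limma adjusted p = 0.163 and 0.177). The 13 neutrophil markers had a median of -0.23, which ran from -0.45 without multi-target mouse 6 to 0.02 without multi-target mouse 39, and the sign changed to 0.13 under quantile normalization. Within that list Csf3r, the receptor for granulocyte colony-stimulating factor, stood at 9.06, 9.51 and 9.27 in vehicle mice and 8.44, 8.06 and 8.28 in multi-target mice. Its difference of -1.02 ± 0.21 had no overlap (adjusted p = 0.161). Mmp9, a neutrophil and macrophage gelatinase, differed by -0.61 ± 0.41 with overlapping groups.

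Chemokines, their receptors and innate sensors lay below vehicle as well. All 24 chemokine genes did so (11 at an unadjusted p under 0.05, 10 without overlap, and 16 without multi-target mouse 39), and their median of -1.06 was -0.71 without vehicle mouse 36. Ccl5, which draws T cells, monocytes and eosinophils (chromosome 11, 83525778 to 83530518, mm10), stood at 8.55, 9.75 and 13.13 in vehicle mice and 7.40, 6.56 and 8.50 in multi-target mice. The groups were 8.50 and 8.55 at their nearest points, and the difference was -2.99 ± 0.96 (limma adjusted p = 0.202). Ccr2, the receptor that brings monocytes from the bone marrow, stood at 9.71, 9.78 and 10.43 in vehicle mice and at 7.61, 6.53 and 8.65 in multi-target mice, with healthy mice at 7.57 to 8.11. Of 25 toll-like receptor and NF-kappaB genes, 24 stood below vehicle and 20 did not overlap. The median of -0.84 was -0.47 without vehicle mouse 36. Il1b, the inflammasome cytokine, varied little within groups, at 8.53, 8.41 and 8.59 in vehicle mice and 7.15, 6.49 and 6.81 in multi-target mice (difference -1.69 ± 0.39, adjusted p = 0.163). Tlr7, the endosomal receptor for single-stranded RNA that lupus immune complexes engage, differed by -1.08 ± 0.26 with no overlap.

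In the complement list 14 of 15 members stood below vehicle, 8 of them at an unadjusted p under 0.05, and 1 member was higher at that threshold. Without overlap, 6 were lower, and 10 without vehicle mouse 17. With that mouse left out, 13.7% of all genes were lower without overlap. C1ra, a protease of the first component, stood at 11.10, 11.23 and 11.81 in vehicle mice and 10.05, 9.64 and 10.32 in multi-target mice (difference -1.38 ± 0.34, limma adjusted p = 0.164). Itgb2, the shared chain of the leukocyte complement receptors, differed by -1.81 ± 0.43 and the anaphylatoxin receptor C3ar1 by -1.60 ± 0.43. The acute phase genes had a median of -0.52, which was -0.16 without vehicle mouse 36 and -0.87 without vehicle mouse 17. Hp, haptoglobin, which binds free haemoglobin, stood at 7.96, 10.24 and 8.20 against 6.90, 6.87 and 5.08 (difference -2.52 ± 0.67). The value of 10.24 was that of vehicle mouse 17, which also held fat and urothelial transcripts, and their part in it was not tested.

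**Figure D3:**
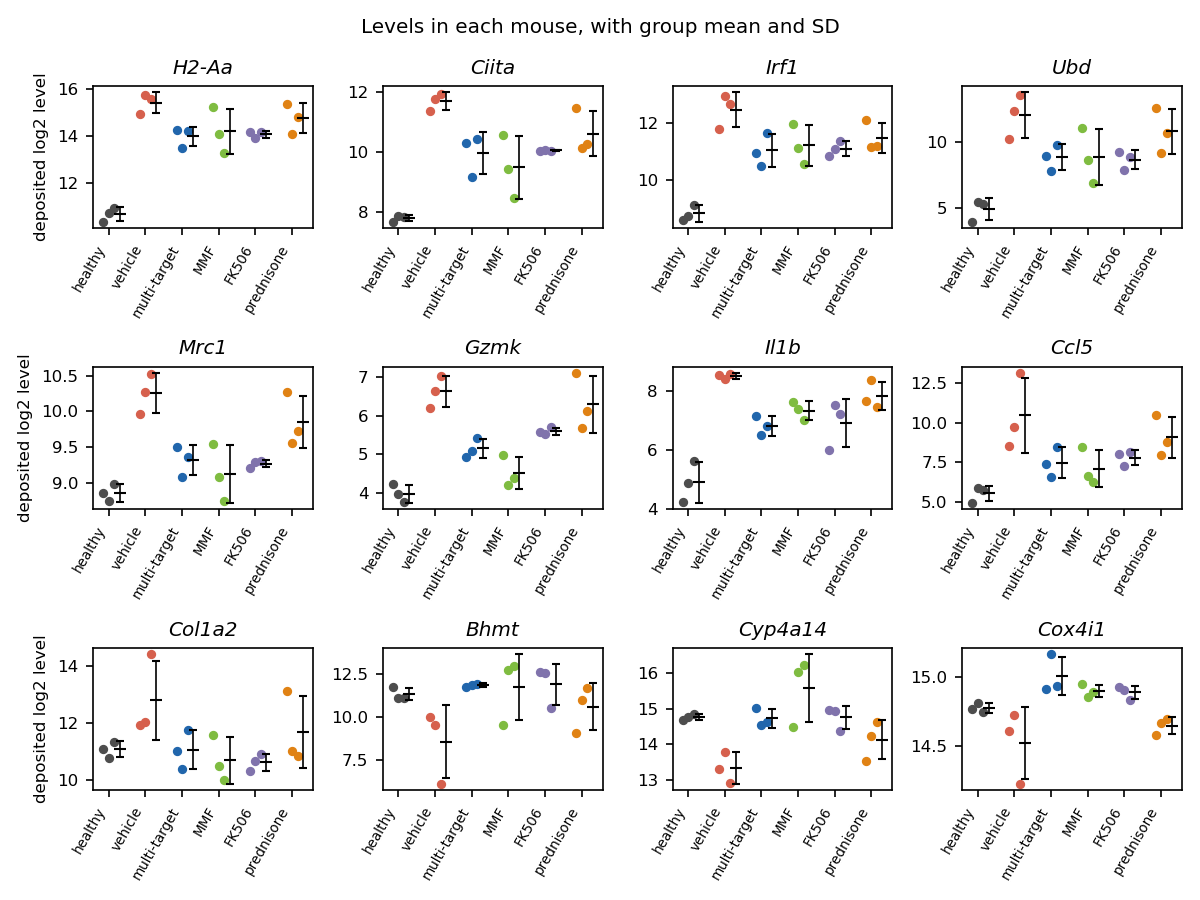
Deposited log2 level of 12 genes in each mouse of the 6 groups, 3 points a group, with the group mean and SD (n = 3) in black. Multi-target mice lie below vehicle mice in the first 9 genes and above them in Bhmt, Cyp4a14 and Cox4i1.

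Extracellular matrix genes lay below vehicle in all 28 members, but the size of that difference came largely with vehicle mouse 36. The median was -0.99 and became -0.44 without that mouse. Of the 28, 18 had an unadjusted p under 0.05 and 8 did not overlap, a count of 23 without multi-target mouse 39 and 20 without vehicle mouse 7. Col1a2, a chain of type I collagen, stood at 11.95, 12.04 and 14.42 in vehicle mice 7, 17 and 36 and at 11.02, 10.38 and 11.77 in multi-target mice, near the 10.77 to 11.33 of healthy mice. Fn1, fibronectin, stood at 11.36, 11.74 and 14.03 against 10.35, 9.54 and 11.50, with overlap. The fibroblast and TGF-beta list had 18 of 20 members below vehicle (median -0.67, and -0.26 without vehicle mouse 36), and 8 did not overlap, or 15 without vehicle mouse 7. Tgfbi, a matrix protein that TGF-beta induces, differed by -1.31 ± 0.36 and did not overlap (limma adjusted p = 0.169). Mfap5, a microfibril protein, stood at 4.83, 6.61 and 8.01 against 3.57, 3.65 and 4.55.

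Tubular injury genes depended on vehicle mouse 36 too. The median over 23 members was -0.72 and became -0.10 without vehicle mouse 36. Of the 23, 5 did not overlap, or 9 without vehicle mouse 7. That count was 8 when multi-target mouse 18 or 39 was left out. With mouse 18 left out, 12.5% of all genes were lower without overlap. Vcam1, an adhesion molecule of injured tubules and endothelium, stood at 11.57, 11.84 and 15.01 in vehicle mice and 10.80, 10.06 and 11.20 in multi-target mice (difference -2.12 ± 0.79, limma adjusted p = 0.238). Cd44, a hyaluronan receptor raised in injured epithelium and on activated leukocytes, stood at 9.04, 9.95 and 12.38 against 8.10, 7.67 and 8.39 (difference -2.40 ± 0.68). Krt19, a keratin of ducts and urothelium, stood at 5.78, 8.52 and 9.69 against 5.71, 5.86 and 5.33. Vehicle mice 17 and 36 were thus high and vehicle mouse 7 within the treated range. Vehicle mouse 17 also held urothelial transcripts, and their part in this value was not tested.

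Genes of oxidative phosphorylation stood higher in multi-target mice in all 38 members, by small amounts. Their median was 0.36, and 0.16 without vehicle mouse 36. Of the 38, 19 had an unadjusted p under 0.05 (background 5.95%) and 14 did not overlap (background 7.55%), a count of 29 without multi-target mouse 6 and 30 without vehicle mouse 17. Cox4i1, a subunit of cytochrome c oxidase, stood at 14.61, 14.72 and 14.22 in vehicle mice and 14.92, 15.17 and 14.94 in multi-target mice, a difference of 0.49 ± 0.12 (limma adjusted p = 0.166). Ndufb8 and Ndufb9, subunits of complex I, differed by 0.51 ± 0.14 and 0.53 ± 0.16. All 19 citric acid cycle genes stood above vehicle too (median 0.32, 0.19 without multi-target mouse 39 and 0.07 without vehicle mouse 36), with 3 of 19 at an unadjusted p under 0.05.

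The 10 largest positive differences among genes without overlap at an unadjusted p under 0.05 were those of Hpd, Bhmt, Rbm44, Wfdc15b, Notum, Airn, Cyp4a14, Aspg, Ddc and Ugt1a2, and ran from 3.69 to 1.33. Hpd, which degrades tyrosine (chromosome 5, 123171807 to 123182727, mm10), stood at 12.87, 11.93 and 8.13 in vehicle mice and 15.18, 15.67 and 13.14 in multi-target mice. The difference was 3.69 ± 1.34 (limma adjusted p = 0.232), with healthy mice at 13.93 to 14.46. Bhmt, which remethylates homocysteine with betaine (chromosome 13, 93616675 to 93637961, mm10), stood at 9.98, 9.56 and 6.14 against 11.74, 11.88 and 11.94, so the treated mice varied little and vehicle mouse 36 was far lowest. Cyp4a14, a fatty acid omega-hydroxylase and PPAR-alpha target, stood at 13.31, 13.79 and 12.91 against 15.03, 14.54 and 14.63, where healthy mice stood at 14.69 to 14.84 (difference 1.40 ± 0.39, adjusted p = 0.169). Ddc, which makes dopamine in the proximal tubule, stood at 12.22, 11.70 and 10.77 against 12.93, 12.99 and 12.78 (difference 1.33 ± 0.30, adjusted p = 0.163).

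Of 40 fatty acid oxidation and PPAR-alpha genes, 29 stood above vehicle, 7 of the 40 had an unadjusted p under 0.05 and 5 did not overlap (median 0.28, and 0.17 without vehicle mouse 36). The count without overlap was 17 without vehicle mouse 17, 13 without multi-target mouse 39, 9 without multi-target mouse 18 and 8 without vehicle mouse 7. With vehicle mouse 7 left out, 13.6% of all genes were higher without overlap. Echs1, an enzyme of mitochondrial beta-oxidation, differed by 0.69 ± 0.23. Of 11 gluconeogenesis genes, 9 stood above vehicle, and their median of 0.67 was 0.25 without vehicle mouse 36. G6pc, which releases free glucose, stood at 13.84, 14.12 and 12.51 in vehicle mice and 14.87, 14.73 and 14.24 in multi-target mice (difference 1.12 ± 0.40, limma adjusted p = 0.227). Hk2, a hexokinase that leukocytes and injured tubules also use, went the other way, at 7.47, 8.60 and 8.72 against 6.82, 6.34 and 7.20. The xenobiotic list had 19 of 25 members above vehicle and a median of 0.58, which was 0.38 without multi-target mouse 18 and 0.34 without vehicle mouse 36, with the carboxylesterase Ces1e at 9.30, 9.94 and 9.14 against 10.69, 10.22 and 11.28.

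The proximal tubule median was 0.40 (22 of 27 above vehicle, 3 at an unadjusted p under 0.05) and 0.26 without multi-target mouse 39 and 0.07 without vehicle mouse 36, and the loop of Henle and distal tubule median was 0.41 (21 of 24 above) and 0.14 without vehicle mouse 36. Aqp1, the water channel of the proximal tubule, stood at 15.38, 15.36 and 13.47 in vehicle mice and 15.90, 16.02 and 15.47 in multi-target mice. Slc13a3, a dicarboxylate transporter, stood at 14.47, 14.59 and 13.68 against 15.10, 15.16 and 14.88, with no overlap (difference 0.80 ± 0.27, limma adjusted p = 0.217). The medians of the podocyte, endothelium and collecting duct lists were 0.03, 0.04 and 0.11, and each changed sign with 1 mouse. Podocyte ran from -0.07 without multi-target mouse 6 to 0.14 without multi-target mouse 18. Endothelium was -0.04 without vehicle mouse 36 or multi-target mouse 6, and 0.13 without multi-target mouse 18. Collecting duct ran from -0.03 without vehicle mouse 7 to 0.28 without vehicle mouse 17. Nphs1, nephrin of the slit diaphragm, stood at 10.93, 11.13 and 10.48 against 11.37, 11.27 and 11.08, with overlap.

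Lists tied to what the drugs of the clinical regimen act on were described separately. The purine synthesis list had a median of -0.00 (0.03 under quantile normalization). It ran from -0.03 without multi-target mouse 39 to 0.02 without multi-target mouse 18. Impdh1 and Impdh2, the enzymes mycophenolate inhibits, differed by -0.24 ± 0.18 and 0.01 ± 0.17 (limma adjusted p = 0.538 and 0.982). In the calcineurin and NFAT list 12 of 16 measured members stood below vehicle (median -0.28, and -0.16 without vehicle mouse 36). Of these 16, 6 were lower without overlap (background 9.54%), or 10 without multi-target mouse 39. The cytokine genes Il2, Ifng and Il4, and Egr3, were listed but not measured. Nfatc1, an NFAT factor that calcineurin activates, stood at 8.92, 9.19 and 9.53 against 8.75, 8.67 and 8.50 (difference -0.58 ± 0.16, adjusted p = 0.169). Rcan1, a feedback inhibitor of calcineurin that NFAT induces, differed by -0.51 ± 0.35 (adjusted p = 0.489). The glucocorticoid list had a median of 0.02, with 13 of 22 members above vehicle. It was -0.12 without multi-target mouse 18, -0.02 without vehicle mouse 7, 0.08 without multi-target mouse 6, 0.18 without multi-target mouse 39 and 0.19 without vehicle mouse 36. Fkbp5, the cochaperone that glucocorticoids induce, stood at 13.34, 12.62 and 12.07 in vehicle mice and 13.53, 14.54 and 12.58 in multi-target mice (difference 0.87 ± 0.48, adjusted p = 0.383), and Tsc22d3 differed by 0.01 ± 0.33. Cell cycle genes stood below vehicle in 30 of 30 members (median -0.74, -0.40 without vehicle mouse 36 and -1.09 without vehicle mouse 7), and 1 of 30 did not overlap. Without vehicle mouse 7, 27 of 30 did not overlap, and without multi-target mouse 39, 22 of 30. The gene without overlap over all 6 mice was Cdca8, a subunit of the chromosomal passenger complex, with a difference of -0.82 ± 0.29.

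The distance of the treated mice from healthy mice was tested in the same fit. In multi-target mice 1049 genes (6.98% of those tested) differed from healthy, 801 (5.33%) higher and 248 (1.65%) lower. In vehicle mice 3369 genes (22.4%) did, 2353 (15.7%) higher and 1016 (6.76%) lower. The comparisons share the healthy libraries, and the difference between those counts was not itself tested. Under quantile normalization the counts were 675 (341 higher, 334 lower) and 3190 (1395 higher, 1795 lower), and the median of all genes in vehicle against healthy moved from 0.09 to -0.07. The multi-target count was 320 without multi-target mouse 18, 321 without multi-target mouse 6, and 223, 303 and 344 without healthy mouse 1, 2 and 3.

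Among the immune lists, antigen presentation had the highest share of members called against healthy in multi-target mice. For MHC class I, 18 of 20 members were called higher in multi-target mice and 20 of 20 in vehicle mice, with medians of 2.21 and 3.27 above healthy. For MHC class II the counts were 9 and 10 of 12, with medians of 2.96 and 4.31. The interferon-gamma list had 11 and 20 of 21 called higher, and the macrophage list 14 and 23 of 25. Other immune lists had fewer: 5 and 17 of 19 T cell markers, 0 and 7 of 7 NK and cytotoxic markers, 4 and 16 of 24 chemokine genes, and 6 and 25 of 29 type I interferon genes. No matrix gene was called higher in multi-target mice against 10 of 28 in vehicle mice, and 1 of 23 injury genes against 13. The share of all genes called higher was 5.33% in multi-target and 15.7% in vehicle mice. Counts of 0 or 1 in the matrix, injury and NK lists are therefore near the background in multi-target mice.

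**Figure D4:**
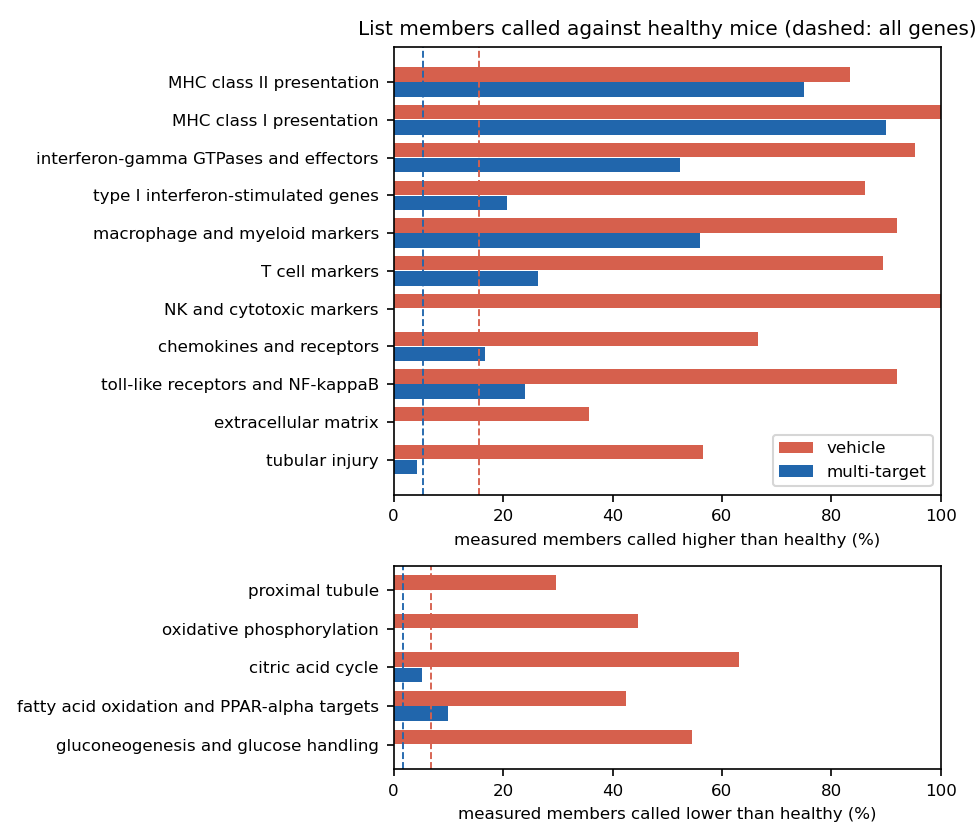
Percent of measured members of each list called higher (top) or lower (bottom) than healthy by limma at an adjusted p under 0.05, for vehicle and multi-target mice, with dashed lines for all genes (15.7 and 5.33 higher, 6.76 and 1.65 lower). Class I and class II genes are called in most members in both groups, and in multi-target mice 0 of 7 NK and 0 of 28 matrix genes are called.

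Genes with the largest rises over healthy were acute phase, neutrophil and interferon-gamma genes. Saa3, an acute phase apolipoprotein, stood at 6.53 and 7.08 in multi-target mice 18 and 39, at 7.001 in mouse 6 and at 7.54 to 7.74 in vehicle mice. It rose by 6.36 ± 0.52 over healthy (limma adjusted p = 2.59e-05). The formyl peptide receptors Fpr2 and Fpr1, which guide phagocytes to bacterial and mitochondrial peptides, rose by 5.64 and 4.94. Healthy levels of these genes were at most 1.27, among the lowest 0.0798% of values in any healthy library, so the size of the rises rests on very few reads. Iigp1 and Tgtp1, interferon-induced GTPases with healthy levels of 6.90 to 8.53 and 4.30 to 6.07, rose by 5.05 and 4.93 (adjusted p = 0.00104 and 0.000599).

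The 5 named falls below healthy were those of Prlr, Esm1, Ces1d, Ces1g and Acsm3. Prlr, the prolactin receptor, stood at 8.79, 8.84 and 11.68 in multi-target mice, 9.75, 9.87 and 9.84 in vehicle mice and 12.92 to 13.12 in healthy mice. It fell by 3.24 below healthy (limma adjusted p = 0.0221), and differed from vehicle by -0.05 ± 0.76. The carboxylesterase Ces1d stood at 13.24, 12.83 and 14.05 and fell by 2.53 below the healthy 15.79 to 15.96. Esm1, a proteoglycan that endothelium secretes, fell by 2.90, Ces1g by 2.49 and Acsm3, a medium-chain acyl-CoA synthetase, by 2.26. No proximal tubule or oxidative phosphorylation gene was called lower than healthy in multi-target mice, against 8 of 27 and 17 of 38 in vehicle mice. The share of all genes called lower was 1.65% and 6.76%, so a count of 0 in lists of this size is near the background in multi-target mice. Nr3c1, the glucocorticoid receptor gene itself, fell by 0.79 below healthy in multi-target mice (limma adjusted p = 0.00522). Of the 22 glucocorticoid list members, 1 was called lower than healthy in multi-target mice and 1 in vehicle mice. Treated and healthy mice also differ in genotype, so treatment and genotype cannot be told apart in these falls. Fas stood at 7.91, 8.18 and 7.89 in multi-target mice and 8.09, 8.28 and 7.91 in vehicle mice, both above the 6.63 to 6.85 of healthy mice. The lpr insertion lies in an intron, so a level summed over the gene does not check the genotype.

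Multi-target mice were then set beside each single drug, 3 comparisons that share the multi-target libraries. No gene passed limma at an adjusted p under 0.05 in any of them (0% called). By sign alone, 56.9% of all genes stood above MMF, 47.6% above FK506 and 37.7% above prednisone. These shares are the background for counts by direction. Unadjusted counts under 0.05 were 1126 genes (7.49%) against MMF, 61 (0.406%) against FK506 and 503 (3.35%) against prednisone, and the smallest adjusted p were 0.0590, 1.00 and 0.498. Without MMF mouse 1, 2521 genes passed against MMF, 1287 higher and 1234 lower. The unadjusted count against MMF was 383 without MMF mouse 14, 512 without MMF mouse 27 and 651 without multi-target mouse 6. Against prednisone it was 198 without prednisone mouse 23, 280 without multi-target mouse 18 and 813 without prednisone mouse 29. Against FK506 it was 190 without FK506 mouse 24, 101 without FK506 mouse 12, and 122 and 121 without multi-target mouse 18 and 39. A missing call does not show that the treatments act alike, and the intervals below give what these mice allow.

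The medians of several immune lists were near those on MMF and FK506 and lay below those on prednisone. The macrophage list had a median difference of 0.37 from MMF, where 25 of 25 members were higher, 0 at an unadjusted p under 0.05. From FK506 it was -0.11, and from prednisone -0.72, where 24 of 25 members were lower. Chemokine genes were 0.36 above MMF (17 of 24 higher), and T cell markers differed from FK506 by -0.24 (1 of 19 higher). Against prednisone, 4 of 25 had an unadjusted p under 0.05 in either direction (background 3.01% lower, 3.35% in either direction). For MHC class II the medians against MMF, FK506 and prednisone were 0.02, -0.08 and -0.67. For toll-like receptor and NF-kappaB genes they were 0.01, -0.02 and -0.52, with 7 of 25 at an unadjusted p under 0.05 against prednisone. Mrc1 averaged 9.31 ± 0.21 on multi-target, 9.13 ± 0.40 on MMF, 9.27 ± 0.05 on FK506 and 9.85 ± 0.37 on prednisone (SD, n = 3 each). Its 95% interval for the difference ran from -0.26 to 0.63 against MMF, -0.40 to 0.49 against FK506 and -0.98 to -0.09 against prednisone. Gzmk averaged 5.15 ± 0.24, against 4.52 ± 0.40 on MMF, 5.599 ± 0.09 on FK506 and 6.29 ± 0.72 on prednisone, with no overlap with FK506 or prednisone. Its difference from prednisone was -1.14, with an interval from -1.85 to -0.42 (limma adjusted p = 0.993).

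Type I interferon genes lay above both MMF and FK506. Their median difference was 0.34 above MMF (26 of 29 higher) and 0.35 above FK506 (27 of 29 higher), with 0 of 29 at an unadjusted p under 0.05 in either. Matrix genes were likewise 0.21 above MMF (23 of 28) and 0.25 above FK506 (27 of 28), again with 0 of 28 at that threshold. Col1a2 averaged 11.06 ± 0.69 on multi-target, 10.69 ± 0.82 on MMF, 10.62 ± 0.30 on FK506 and 11.67 ± 1.28 on prednisone. Oxidative phosphorylation genes were above prednisone in 38 of 38 (median 0.22, 2 of 38 at an unadjusted p under 0.05, background 0.333% higher) and above MMF in 36 of 38 (median 0.12).

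The metabolic genes G6pc and Cyp4a14 had their highest group mean on MMF. G6pc averaged 14.61 ± 0.33 on multi-target and 15.68 ± 0.63 on MMF (SD, n = 3 each), with no overlap and an interval from -1.92 to -0.21 (limma adjusted p = 0.644). Cyp4a14 averaged 14.73 ± 0.26 and 15.57 ± 0.96, with an interval from -1.66 to -0.02 (adjusted p = 0.648). The glucocorticoid list lay below MMF (median -0.38) and below prednisone (-0.30, 0 of 22 at an unadjusted p under 0.05). Against MMF, 3 of 22 had an unadjusted p under 0.05 in either direction (background 2.12% lower, 7.49% in either direction). Of the 22 members, 6 lay above MMF, so the background for that count is 7.49%. Fkbp5 averaged 13.55 ± 0.98 on multi-target, 14.02 ± 0.73 on MMF, 13.62 ± 0.54 on FK506 and 13.84 ± 0.53 on prednisone, so its multi-target level was within the spread of every single drug.

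**Figure D5:**
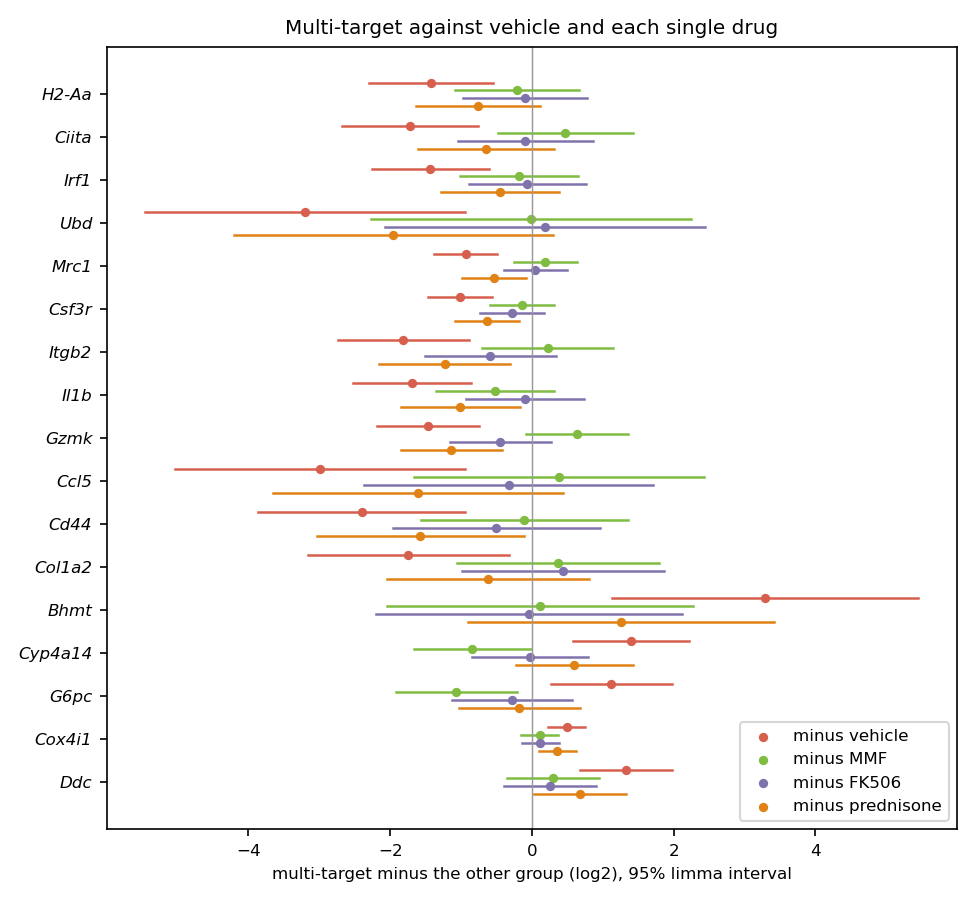
Difference in log2 level between multi-target mice and vehicle or each single drug for 17 genes, as points with 95% limma intervals, with 0 as the grey line. Intervals against vehicle lie on one side of 0 for all 17 genes, while those against MMF cover it in all but G6pc and Cyp4a14, and those against FK506 in all. The genes came through the naming rule, largely for a small p or large difference against vehicle. Their intervals against vehicle leave out 0 through that choice, so the contrast with the single drugs is not a test.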

How the data were processed

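Per the labels' protocols, cortices were flash frozen and TruSeq libraries were built from 1 ug of column-purified total RNA. The authors deposited 1 file per library with a normalized log2 level per gene symbol. The submitters' processing notes name limma and mm10 without versions or roles. The aligner, annotation and method of normalization were not given in the sources used here. In the 6 libraries compared, 76.6% to 76.9% of linear values were whole multiples of 1 step per library within 0.01 reads, which gave the depth, and 0.0532% to 0.126% of values were under 10 reads. From the deposited log2 values, limma (version 3.58.1, R 4.3.3) fitted means of 6 groups of 3 libraries, with no pseudocount or filter, a variance trend on the mean level and 12 residual degrees of freedom. The fit was also tested on simulated data with known changes. Nothing states whether replicate libraries came from separate litters or days, so p-values measure the spread between these samples only.

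The 42 gene lists, the members and the naming rule were chosen with earlier results of these data known. The rule names the largest called changes without overlap, up to 4 members with the smallest p of each list, drug-related check genes and tissue markers. Since no gene was called against vehicle, the 10 largest non-overlapping differences in each direction at an unadjusted p under 0.05, and the 10 smallest p, were added after their values were seen. Rows with a gene name turned into a date (23) were tested but not named. Alternatives were a 2-group fit, quantile normalization, leaving out the lowest 25% of genes, a pseudocount of 8, array weights and each library left out. Promoter windows and gene coordinates came from RefSeq (GRCm38.p6) and GENCODE on the same build.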

Additional observations from a re-analysis of the deposited data

How the results depend on the processing

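The multi-target against vehicle count of 0 held in the 2-group fit, under quantile normalization, without the lowest 25% of genes, with a pseudocount of 8 and without vehicle mouse 17 and FK506 mouse 12 together, an alternative chosen after seeing the data. It was 0 to 38 when 1 library was left out, and 2785 with array weights. Those weights did not converge, so their counts are listed only: 9926 for multi-target against healthy, 5519 for vehicle against healthy, 6935 against MMF, 2049 against FK506 and 1 against prednisone. The multi-target against healthy count of 1049 was 3238 in the 2-group fit, 675 under quantile normalization, 623 without the lowest 25% of genes and 223 to 1293 when 1 library was left out. The vehicle against healthy count of 3369 was 2226 without the lowest 25% of genes and 1490 to 4023 when 1 library was left out, with 1490 without vehicle mouse 36 and 1744, 1824 and 1863 without healthy mouse 1, 2 and 3. Against MMF, 1 gene was called without the lowest 25% of genes and 0 to 2521 when 1 library was left out. The causes were not tested, beyond the fewer genes or libraries that some settings hold by construction. For named genes, 2410 gene and setting pairs kept their sign and call, and 65 changed sign, 14 of them without vehicle mouse 36. A further 135 came to pass the test, most of them with array weights. Changes of size were not part of these counts. Under quantile normalization the medians of the neutrophil, purine, cholesterol synthesis (-0.01 to 0.03) and ribosomal protein lists (0.11 to -0.02) changed sign. No paired analysis was possible because the mouse numbers of the multi-target group (6, 18, 39) and the vehicle group (7, 17, 36) share none. The median within-group SD was 0.220 in vehicle, 0.163 in multi-target and 0.0795 in healthy mice, and no run at other depths was made.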

Other observations

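The multi-target mice differed among themselves in a way the group label does not give. Mouse 18 stood lowest of the 3 in class I, class II, macrophage, T cell and chemokine lists, at 0.61 above healthy for chemokines against 1.12 in mouse 6 and 1.51 in mouse 39. The same mouse stood highest in the acute phase list, at 2.65 above healthy against 2.01 and 2.03, and lowest in the proximal tubule list, at -0.97 against -0.67 and -0.41. On the second principal component, which carried 28.8% of the variance, mice 6, 18 and 39 lay at 8.66, 29.5 and -24.0. Across genes the multi-target mice varied less than the vehicle mice, with 195 genes at a within-group SD over 1, against 510 in vehicle and 20 in healthy mice.

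Of 17 circadian clock genes, 2 were called higher than healthy in multi-target mice (background 5.33%) and 0 lower. A count of 2 in a list of this size is little above that background. The median of the list lay at -0.40. The 2 called genes were the activators Arntl and Npas2, at 0.95 and 0.92 above healthy (limma adjusted p = 0.0239 and 0.0442), with vehicle mice at 0.57 and 0.55 above healthy.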
